A study of Mus musculus with 6 samples.

Results

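Endothelial cell genes were followed through the RNA sequencing of hair follicle stem cells (HFSCs), as 10 genes chosen by symbol: Pecam1, Cdh5, Kdr, Flt1, Tek, Tie1, Vwf, Egfl7, Plvap and Emcn. All 10 were among the 56941 genes of the count table, and all 10 passed the filter on low counts. The study asked how Dab2, a cytosolic adaptor of clathrin-mediated endocytosis, acts in HFSCs, the CD34+/α6-integrin+ cells of the follicular bulge. Total RNA was taken at PD68 (postnatal day 68), when the study places the dorsal skin of both genotypes in telogen, the resting phase of the hair cycle. The cells came from female mice of strain B6;129S4-Dab2tm1Cpr/J and were sorted by FACS (fluorescence-activated cell sorting) for CD34 and α6-integrin from an epidermal cell suspension. Both genotypes were Dab2 fl/fl and received tamoxifen at 75 mg/kg for 5 days, and Dab2-cKO mice in addition carried K14CreER, with 3 biological replicates under the label WT and 3 under the label Dab2-cKO. The K14 promoter is active in basal keratinocytes and is not known to be active in endothelial cells, which limits the model to the epithelium.

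Endothelial cells line blood and lymph vessels. They are held together by adhesion molecules at their junctions, read VEGF ligands through the receptors Kdr and Flt1, and read angiopoietins through the receptor Tek with its partner Tie1. In skin, capillaries surround the hair follicle, and many have pores closed by diaphragms. CD34 and α6 integrin, the surface proteins of the sort, are also carried by endothelial cells, and in endothelium Dab2 is known as an adaptor for the uptake of VEGF receptors.

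The targeted gene did not follow the labels. Dab2 had 338, 332 and 309 normalized counts (counts scaled to a common library size) in the libraries labelled WT and 1434, 1300.2 and 1389.5 in those labelled Dab2-cKO, a log2 fold change of 2.08 ± 0.08 (SE, edgeR adjusted p = 3.04e-34). The paper reports the opposite in other material, with lower Dab2 mRNA by qPCR in Dab2-cKO epidermis and loss of Dab2 staining in the follicle. Fold changes are given as Dab2-cKO over WT throughout, and each direction rests on the labels. The columns of the count table carry the names WT and FL-FL, and FL-FL was read as Dab2-cKO from the title of the series and the heading of the study's principal component plot, although floxed alleles were present in both genotypes. Library totals lay between 7040032 and 11696457 counts. Mitochondrial genes made up 13.0 to 14.4% of counts under the WT label and 19.1 to 20.3% in those labelled Dab2-cKO, and hair shaft and inner root sheath genes were lower in the latter for 12 of 12 tested, with a median log2 fold change of -6.38. Their summed level ranged from 24293 to 29176 CPM (counts scaled by the effective library size) under the WT label and from 349 to 355 under the Dab2-cKO label. Whether the libraries of both labels match the telogen stage given by the study was not tested. Of 32149 genes tested, 5387 were called higher and 3682 lower at an adjusted p under 0.05. The share of higher calls was 59.4%, against 43.5% with upper-quartile scaling and 19.4% with library size only.

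ETS factors such as Erg and Fli1 drive endothelial genes through sites with the core GGAA, so the promoters of the 10 genes were searched for AGGAAG. RefSeq promoters (GRCm38.p6) were at hand for 6 of the 10 genes, Kdr, Flt1, Tek, Tie1, Emcn and Egfl7, the last with 3 starts. AGGAAG or its reverse complement CTTCCT was found in 5 of these 8 windows and 4 of the 6 genes, and in 29.5% of 32851 mouse promoters of the same length. The longer CAGGAAG, which contains AGGAAG, was found in 3 windows, of Egfl7 and Emcn, and in 10.8% of all promoters. ACAAAG, of the SOX factors, lay in 2 windows, of Egfl7 and Tek, and in 16.5% of all. TAAACA, of the forkhead factors, and AGATAA, of the GATA factors, lay in none of the 8 windows on either strand and in 12% and 9.99% of all. Kdr and Tek held no AGGAAG on either strand, though both held the shorter core GGAA or its reverse complement TTCC. The 5 windows with AGGAAG or CTTCCT are shown so that the matches can be seen in place. Each is the 250 bases before the start, 5′ to 3′ on the strand of the gene, with matches on either strand in capitals, at chr5:147726012-147726261 (minus) for Flt1, chr4:118489850-118490099 (minus) for Tie1, chr3:137340828-137341077 (plus) for Emcn, and chr2:26580833-26581082 and chr2:26583615-26583864 (plus) for Egfl7.
Flt1: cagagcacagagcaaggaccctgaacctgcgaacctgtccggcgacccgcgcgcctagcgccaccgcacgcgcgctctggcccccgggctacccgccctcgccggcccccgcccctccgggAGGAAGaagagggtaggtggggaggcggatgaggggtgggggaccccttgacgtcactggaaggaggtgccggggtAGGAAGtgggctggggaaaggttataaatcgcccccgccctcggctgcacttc
Tie1: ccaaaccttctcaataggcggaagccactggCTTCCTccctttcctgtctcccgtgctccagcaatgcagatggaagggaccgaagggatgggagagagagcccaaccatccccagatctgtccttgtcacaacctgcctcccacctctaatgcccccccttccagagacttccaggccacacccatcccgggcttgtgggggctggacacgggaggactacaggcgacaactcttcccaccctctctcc
Emcn: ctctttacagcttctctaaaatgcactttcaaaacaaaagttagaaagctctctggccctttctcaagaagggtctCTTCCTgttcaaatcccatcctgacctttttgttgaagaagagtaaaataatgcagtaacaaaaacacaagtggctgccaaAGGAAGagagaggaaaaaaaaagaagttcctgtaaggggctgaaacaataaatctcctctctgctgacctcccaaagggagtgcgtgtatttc
Egfl7 first start: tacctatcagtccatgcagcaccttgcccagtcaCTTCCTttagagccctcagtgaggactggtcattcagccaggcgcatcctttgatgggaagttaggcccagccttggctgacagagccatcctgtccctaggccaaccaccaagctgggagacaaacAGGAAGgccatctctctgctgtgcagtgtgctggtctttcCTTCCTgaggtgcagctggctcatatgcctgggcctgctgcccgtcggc
Egfl7 second start: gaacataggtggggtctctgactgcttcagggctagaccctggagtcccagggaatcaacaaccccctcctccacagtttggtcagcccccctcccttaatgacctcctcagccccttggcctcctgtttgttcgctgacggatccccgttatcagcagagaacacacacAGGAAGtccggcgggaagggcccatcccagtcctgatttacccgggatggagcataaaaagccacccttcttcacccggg

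All 10 genes were higher in the libraries labelled Dab2-cKO, and for all 10 every one of these libraries lay above every library labelled WT. By comparison, 28.2% of all genes tested were called in either direction, 16.8% were called higher and 20.6% did not overlap in this direction. The log2 fold changes ran from 1.41 to 2.48 with a median of 1.83, where all genes tested had a median of -0.02 and a 5th to 95th percentile of -1.01 to 1.17. Against a fold change of 1.5, all 10 still passed, as did 6.91% of all genes in that direction. The summed level of the 10 genes was 223, 254 and 247 CPM (counts scaled by the effective library size) in the libraries labelled WT and 860.03, 855 and 839 in those labelled Dab2-cKO, a 3.53-fold difference. In sorted bulk RNA, more endothelial cells and more RNA of these genes per cell cannot be told apart.

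**Figure D1:**
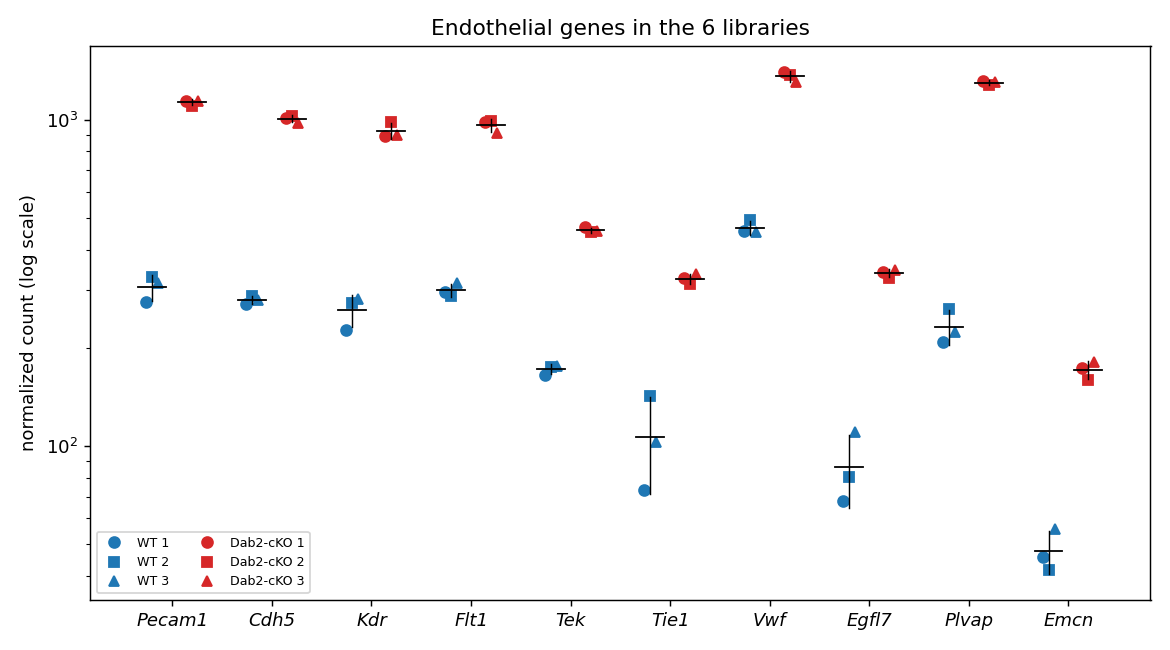
Normalized counts (log scale) of the 10 endothelial genes in the 3 libraries labelled WT (blue) and the 3 labelled Dab2-cKO (red), with replicates as circle, square and triangle, the mean as a bar and the SD as a line. For every gene the red points lie above the blue points, from Emcn at 41.5 to 55.5 against 159.9 to 181 up to Vwf at 453 to 494 against 1306 to 1405.

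Pecam1 and Cdh5 stand for the endothelial junction. Pecam1, or CD31, is an adhesion molecule of the immunoglobulin family that platelets and leukocytes also carry, and lies on chromosome 11 from 106543689 to 106641454 (GRCm39, minus strand). It had 276, 329.5 and 315 normalized counts in libraries labelled WT and 1144, 1105 and 1146 in those labelled Dab2-cKO. The difference was 3.67-fold, with a log2 fold change of 1.88 ± 0.08 (SE, edgeR adjusted p = 4.23e-31), and the spread within each genotype was small beside it. Cdh5, or VE-cadherin, holds endothelial cells to each other and is the more restricted marker of the pair (chromosome 8, 104828231 to 104871143, plus strand). It had 272, 289 and 280.2 normalized counts under the WT label and 1011, 1029.8 and 981 under the Dab2-cKO label, a log2 fold change of 1.84 ± 0.08 (edgeR adjusted p = 1.7e-30). Pecam1 counts were 1.09 ± 0.07 times those of Cdh5 in the libraries labelled WT and 1.12 ± 0.05 times under the Dab2-cKO label (SD, n = 3 each), and these ratios overlapped (exact permutation test, two-sided p = 0.6).

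Kdr and Flt1 are the VEGF receptors of blood vessels. Kdr (VEGFR2) carries most of the growth signal of VEGF-A and lies on chromosome 5 from 76093487 to 76139884 (minus strand). It had 227, 274 and 282 normalized counts in libraries labelled WT and 892, 984 and 901 in those labelled Dab2-cKO, a log2 fold change of 1.82 ± 0.09 (SE, edgeR adjusted p = 1.29e-28). Flt1 (VEGFR1), which binds VEGF-A tightly and has a soluble form that acts as a decoy, lies on the same chromosome from 147498414 to 147662826 (minus strand). Its 297, 288 and 315 normalized counts under the WT label stood against 986, 991 and 909, a log2 fold change of 1.68 ± 0.08 (edgeR adjusted p = 4.57e-28). Neither receptor overlapped between the genotypes. The ratio of Kdr to Flt1 counts was 0.87 ± 0.097 and 0.963 ± 0.050 (SD, n = 3 each), an overlap that left the balance of the receptors indistinguishable at this number of replicates (exact permutation test, two-sided p = 0.2, where 0.1 is the smallest possible).

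Tek (TIE2) is the receptor of the angiopoietins, which steady vessels, and Tie1 is its orphan partner. Tek, on chromosome 4 from 94627291 to 94763224 (plus strand), had 165, 175 and 176 normalized counts in libraries labelled WT and 468, 454 and 455 under the Dab2-cKO label. Its log2 fold change of 1.41 ± 0.11 (SE, edgeR adjusted p = 6.2e-19) was the lowest of the 10 genes. Tie1, on chromosome 4 from 118328385 to 118347261 (minus strand), varied most between the libraries labelled WT, with 73.5, 143 and 103 normalized counts, while those labelled Dab2-cKO held 327, 313 and 337. The log2 fold change of Tie1 was 1.60 ± 0.14 (edgeR adjusted p = 2.28e-16). A lncRNA on the opposite strand covers 4.76% of the Tie1 exons.

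Vwf and Egfl7 are secreted. Vwf, the clotting glycoprotein stored in endothelial granules and in platelets, lies on chromosome 6 from 125523737 to 125663642 (plus strand) and had the highest mean of the 10 genes under each label, with 455, 494 and 453 normalized counts under the WT label and 1405, 1372 and 1306 under the Dab2-cKO label. This was a log2 fold change of 1.54 ± 0.08 (SE, edgeR adjusted p = 4.91e-28), with a gap between the genotypes far wider than the spread within either. Egfl7, a matrix protein laid down along growing vessels, lies on chromosome 2 from 26468286 to 26486789 (plus strand) and had 67.9, 80.3 and 110.2 against 342, 328 and 345 normalized counts. Its log2 fold change was 1.96 ± 0.13 (edgeR adjusted p = 9.74e-21). Exons of opposite-strand genes, mainly Agpat2, cover 14.3% of the Egfl7 exons, and same-strand genes cover 4.21%.

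Egfl7 also hosts miR-126, an endothelial microRNA. The mature strand from RefSeq (GRCm38.p6, chr2:26591402-26591423, plus strand) is shown with its seed, bases 2 to 8, in capitals.
mmu-miR-126a-3p: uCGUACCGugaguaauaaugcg
The rows Mir126a and Mir126b held a count of 0 in all 6 libraries, which by counting error alone allows up to 3 counts in each. Exons of Egfl7 overlap all 73 bases of Mir126a and all 58 of Mir126b. How reads shared between such rows were counted is not given in the sources used here. The level of the microRNA therefore cannot be read from these libraries, and the rise of Egfl7 is that of the host gene's row.

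Plvap and Emcn mark capillaries and veins. Plvap, the protein that forms the diaphragms of endothelial pores, lies on chromosome 8 from 71948674 to 71964506 (minus strand) and had 208, 264 and 224 normalized counts in libraries labelled WT. In those labelled Dab2-cKO it had 1316, 1281 and 1309. The difference was 5.60-fold, the largest of the 10 genes before any background was taken off, with a log2 fold change of 2.48 ± 0.09 (SE, edgeR adjusted p = 3.69e-37) and rank 161 of the 32149 genes. Exons of Gtpbp3 on the opposite strand cover 21.7% of the Plvap exons, and as the strand setting of the counting is not stated, reads of such pairs cannot be told apart. Emcn (endomucin), a mucin of the luminal surface of capillaries and veins, lies on chromosome 3 from 137046794 to 137138999 (plus strand) and was the least abundant, with 45.7, 41.5 and 55.5 against 174, 159.9 and 181 normalized counts. It rose with a log2 fold change of 1.84 ± 0.17 (edgeR adjusted p = 1.58e-14), the widest error of the 10 genes, and its lowest raw count was 41.

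To compare genes, levels were divided by the length of their exons, merged over all annotated transcripts of a gene. The merged length can exceed that of the transcript in use, so the order per kb is approximate. Per kb of exon, Cdh5 (64.0 normalized counts per kb) and Plvap (60.4) led in the libraries labelled WT and overlapped, followed by Pecam1 (30.7), Tek (28.6), Kdr (28.4) and Vwf (27.9), in which each overlapped the next. Flt1 (22.0) and Tie1 (21.2) overlapped as well, and Egfl7 (10.8) and Emcn (7.21) came last, each apart from its neighbours. Tie1, at 14.7 to 28.5, also overlapped Pecam1, Tek, Kdr and Vwf. In the libraries labelled Dab2-cKO the order per kb was Plvap (339), Cdh5 (229.9), Pecam1 (113), Kdr (100.6), Vwf (81.3), Tek (76.5), Flt1 (70.4), Tie1 (65.1), Egfl7 (42.3) and Emcn (26.0), and only Flt1 and Tie1 overlapped. Plvap thus stood level with Cdh5 under the WT label and above it in each library labelled Dab2-cKO.

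The low end of this scale was read against 1561 chemosensory receptor genes (olfactory, vomeronasal and trace amine receptors). Most of these receptors belong to sensory neurons, though some have been described in skin, so their counts served as a rough estimate of a background. Their median was 4.89 and their 95th percentile 11.7 normalized counts per kb. Egfl7 and Emcn in the libraries labelled WT had means under that 95th percentile, while the other 8 genes in these libraries and all 10 in those labelled Dab2-cKO had means above it. With the receptor median taken off, Emcn was left with 16.0 ± 7.39 and Egfl7 with 47.8 ± 23.1 normalized counts under the WT label (SD, n = 3 each), too close to the background for an exact fold against the 140.3 ± 11.0 and 301 ± 9.67 under the Dab2-cKO label. The log2 ratio of the other 8 genes ran from 1.59 to 2.59, and no gene overlapped between the genotypes. The background was taken off the 10 genes only, and some genes of the lists below also lay under the 95th percentile in the libraries labelled WT.

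**Figure D2:**
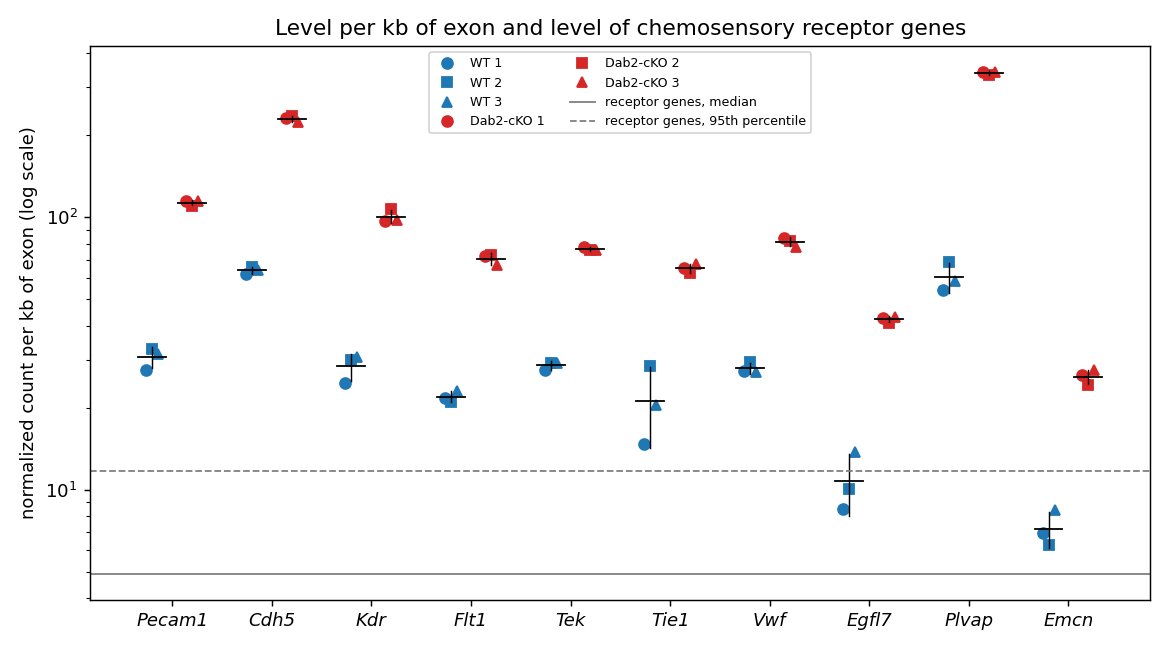
Normalized counts per kb of exon (log scale) of the 10 genes in each library (blue WT, red Dab2-cKO; bar, mean; line, SD; n = 3), with the median (4.89, solid line) and the 95th percentile (11.7, dashed line) of 1561 chemosensory receptor genes. Egfl7 and Emcn in the libraries labelled WT are near or under the dashed line, and Plvap moves from the level of Cdh5 to above it.

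The 10 genes did not all rise by the same factor. As a share of the summed count of the 10 genes, Plvap went from 10.2% ± 0.744 in the libraries labelled WT to 16.3% ± 0.329 under the Dab2-cKO label (SD, n = 3 each). Vwf went from 20.7% ± 1.12 to 17.0% ± 0.417, and Tek from 7.62% ± 0.264 to 5.75% ± 0.072. These 3 shares did not overlap between the genotypes, at an exact permutation p of 0.1, which is the smallest that 3 against 3 libraries allow, so that no share could pass a threshold of 0.05. The shares of the other 7 genes overlapped (10 shares compared, exact two-sided permutation p of 0.2 to 0.9). Plvap counts were 0.457, 0.534 and 0.494 times those of Vwf in the libraries labelled WT and 0.937, 0.934 and 1.00 times in those labelled Dab2-cKO. Against Tek, Plvap stood at 1.26, 1.51 and 1.27 and at 2.81, 2.82 and 2.88. Being ratios of counts within a library, these values do not depend on the scaling between libraries.

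**Figure D3:**
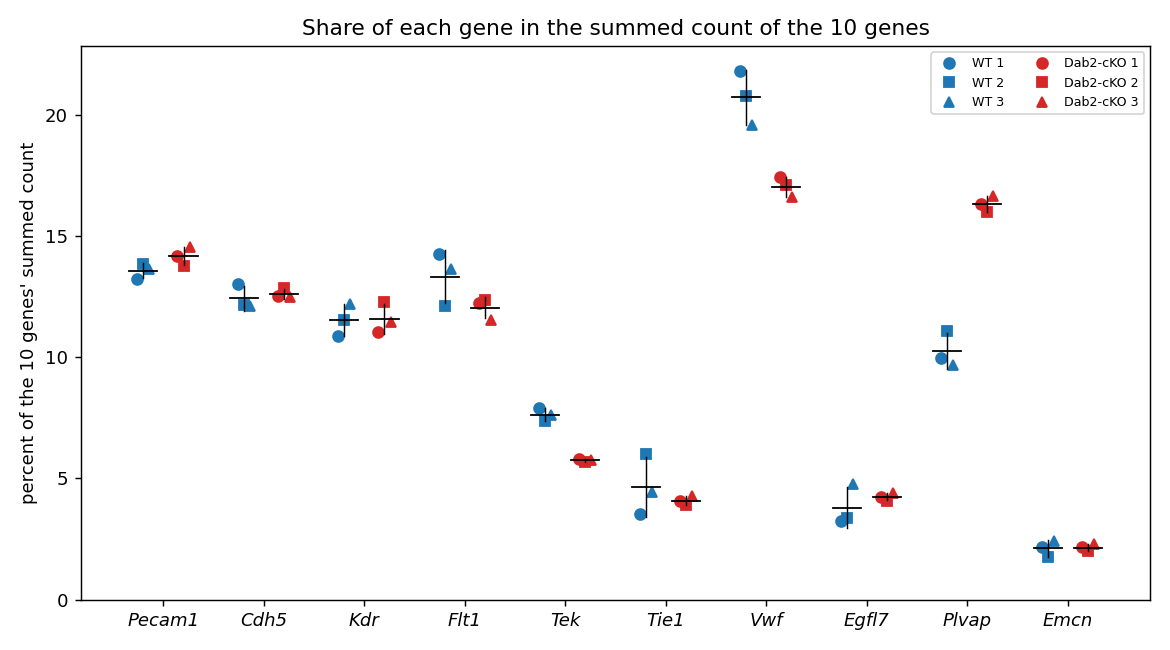
Share of each gene in the summed count of the 10 genes (percent), per library (blue WT, red Dab2-cKO; bar, mean; line, SD; n = 3). Plvap takes a higher share, and Vwf and Tek a lower share, in each library labelled Dab2-cKO, and the other 7 genes overlap.

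Other endothelial genes were counted from lists written from known markers. For every list, the shares to set beside its counts are those over all genes tested, 16.8% called higher and 11.5% called lower. Of 20 other surface and junction genes, 18 were higher, with a median log2 fold change of 1.34. Ptprb, the phosphatase VE-PTP that restrains Tek, went from 499 ± 41.1 to 1776 ± 35.0 normalized counts (SD, n = 3 each), a log2 fold change of 1.83 ± 0.08 (SE, edgeR adjusted p = 1.96e-32). Eng, a coreceptor for TGF-β family ligands, rose by 1.60 ± 0.10 on the log2 scale (edgeR adjusted p = 1.86e-23), and Mcam, an adhesion molecule that mural cells also carry, rose by 1.18 ± 0.11 (adjusted p = 4.67e-15). Tm4sf1 was the lone gene called lower, with a log2 fold change of -0.48 ± 0.10 (edgeR adjusted p = 3.65e-05). Ece1, at 1844 ± 229 and 2049 ± 98.0 normalized counts, overlapped and was not called (log2 fold change 0.15 ± 0.07, edgeR adjusted p = 0.13), and with library size only its sign changed to -0.27.

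Transcription factors of endothelium moved in the same direction as the 10 genes. All 12 listed were called higher, with log2 fold changes from 0.48 to 2.14 and a median of 1.32. Under the WT label, Tal1 (6.45), Sox17 (7.04), Lyl1 (7.54), Gata2 (8.12) and Hhex (8.26), named after their values were seen, had means per kb under the receptor 95th percentile of 11.7. Their fold changes are therefore not exact. Klf2, which responds to blood flow, went from 49.8 ± 10.6 to 218 ± 21.6 normalized counts (log2 fold change 2.14 ± 0.17, edgeR adjusted p = 3.57e-18). The ETS factors Fli1 and Ets1, of the family for which AGGAAG was searched in the promoters, had log2 fold changes of 1.63 ± 0.13 and 1.34 ± 0.09 (edgeR adjusted p = 1.58e-17 and 2.9e-20). Erg, of the same family and named after its values were seen, rose less (0.76 ± 0.16, edgeR adjusted p = 4.14e-05). Its call was lost with library size only (log2 fold change 0.34, edgeR adjusted p = 0.081) and against a fold change of 1.5. Lmo2, a partner of Tal1 and Gata2 in endothelial and blood cells, had one of 1.70 ± 0.13 (edgeR adjusted p = 5.71e-18). With library size only, 9 of the 12 were called. Sox7, the lowest of them and named after its values were seen, had a log2 fold change of 0.48 ± 0.18 (edgeR adjusted p = 0.037) and lost its call under 11 alternatives, among them DESeq2, upper-quartile scaling and leaving out WT replicate 1 or 2 or Dab2-cKO replicate 1 or 3, with an adjusted p of up to 0.23 with a library left out.

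Of 10 ligands and coreceptors of the VEGF and angiopoietin systems, 7 were called higher and 1 lower, with a median of 1.09. Vegfa, the chief ligand of Kdr, which keratinocytes make in skin, had 222, 255 and 279 normalized counts in libraries labelled WT and 645, 573 and 614 in those labelled Dab2-cKO (log2 fold change 1.27 ± 0.10, edgeR adjusted p = 1.02e-18). Vegfb, a ligand of Flt1, rose by 1.09 ± 0.14 on the log2 scale (edgeR adjusted p = 8.26e-10). The neuropilins, coreceptors of VEGF and receptors of semaphorins, went in opposite directions. Nrp1, found in blood endothelium, had 281, 311 and 363 normalized counts in libraries labelled WT and 1152, 1207 and 1164 in those labelled Dab2-cKO (log2 fold change 1.88 ± 0.08, edgeR adjusted p = 1.14e-30). Nrp2, found in lymphatic endothelium and in epithelium, had 1903, 2272 and 2042 against 1152, 1156 and 1169.9, a log2 fold change of -0.84 ± 0.07 (edgeR adjusted p = 2.39e-16). The ligands Angpt2 and Angpt4, named after their values were seen, were not called, with log2 fold changes of 0.32 ± 0.15 and 0.10 ± 0.27 (edgeR adjusted p = 0.119 and 0.851), and with library size only their signs changed (-0.11 and -0.34).

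**Figure D4:**
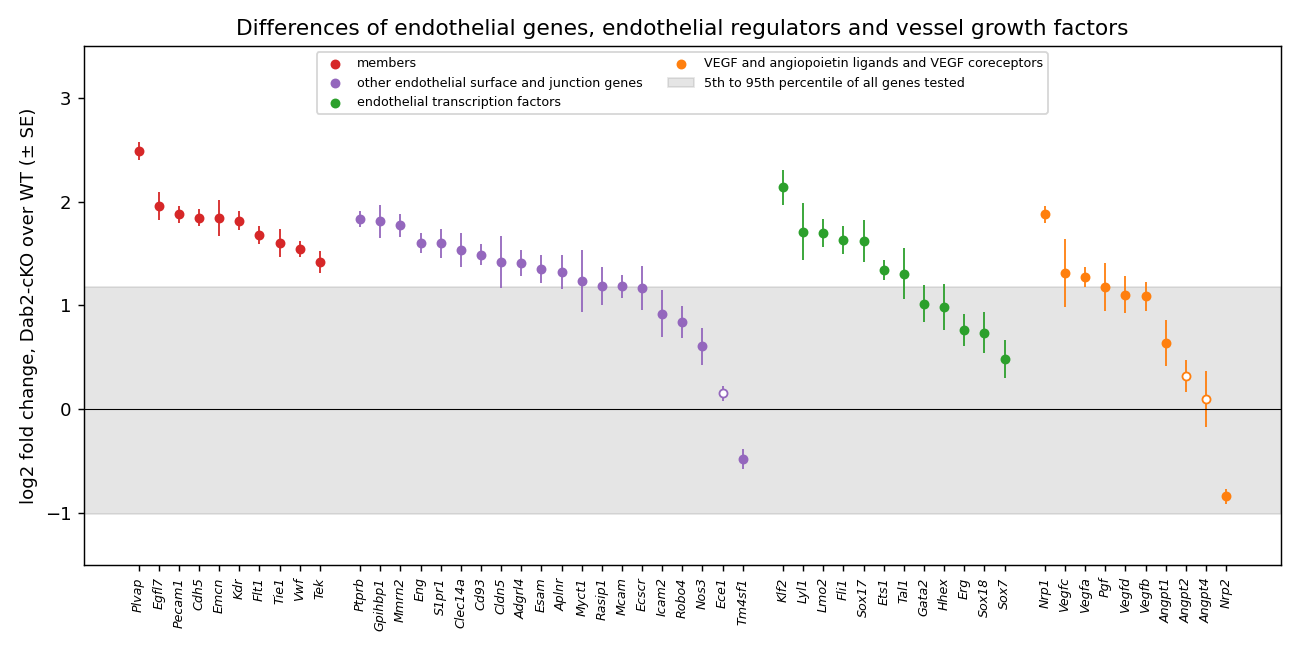
Log2 fold change (Dab2-cKO over WT, point) with its SE (line) for the 10 endothelial genes (red, "members"), other endothelial surface and junction genes (purple), endothelial transcription factors (green) and VEGF and angiopoietin ligands with VEGF coreceptors (orange). Open points were not called, and the grey band is the 5th to 95th percentile of all genes tested (-1.01 to 1.17), above which all 10 red points lie.

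Lists of vessel types were counted as well. All 7 venous genes were called higher (median log2 fold change 0.96), among them Nr2f2, the regulator of venous identity (1.51 ± 0.12, edgeR adjusted p = 6.62e-18), Aplnr, also in the list of surface genes (1.32 ± 0.16, adjusted p = 1.32e-10), Vcam1 (0.91 ± 0.16, adjusted p = 4.32e-06) and Ephb4 (0.51 ± 0.09, adjusted p = 1.07e-06). With library size only, 4 of the 7 were called, and Ephb4 was not (log2 fold change 0.08, edgeR adjusted p = 0.4). All 7 lymphatic genes were called higher (median 1.24), and 6 of the 7 with library size only. The chemokine Ccl21a rose most among those named, with 187, 220.3 and 193 normalized counts under the WT label and 1239, 1156 and 1191 under the Dab2-cKO label (log2 fold change 2.58 ± 0.09, edgeR adjusted p = 9.2e-38), and as a member of a family of near-identical copies its count is uncertain. Flt4, the receptor of VEGF-C, rose by 1.24 ± 0.12, Mmrn1 by 1.62 ± 0.10 and Reln by 0.70 ± 0.09 on the log2 scale (edgeR adjusted p = 7.4e-15, 2.83e-22 and 4.85e-10). Of 8 arterial genes, 4 were called higher and 1 lower (median 0.60). Besides Dll4 and Gja4, named after their values were seen, Cxcl12 rose by 1.20 ± 0.08 and Sema3g by 0.77 ± 0.12, while Efnb2, the arterial ligand of Ephb4 that epithelium also makes, fell by 0.31 ± 0.07 on the log2 scale (edgeR adjusted p = 2.93e-22, 2.26e-07 and 0.000341). Gja5, Bmx and Hey1, the last pair named after their values were seen, had log2 fold changes of 0.40, 0.43 and 0.27 and were not called (edgeR adjusted p = 0.113, 0.228 and 0.5), and with library size only the signs of all 3 changed.

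Markers of other cells moved with the 10 genes, and their part in the result was not tested. Of 9 fibroblast genes, 9 were higher, with a median log2 fold change of 1.60. Their summed level ranged from 11203 to 13551 CPM in the libraries labelled WT and from 39080.3 to 41220.0 in those labelled Dab2-cKO, led by Col1a1 (1.56 ± 0.07) and Col3a1 (1.98 ± 0.07; edgeR adjusted p = 3.1e-31 and 6.13e-37). Of 9 leukocyte genes, 7 were higher and none lower (median 1.78, summed level 88.2 to 96.7 against 294 to 309 CPM), with Csf1r, the receptor of macrophage growth factor, at 2.00 ± 0.08 and Ptprc (CD45) at 1.52 ± 0.09. Of 9 mural genes, from the pericytes and smooth muscle that wrap vessels, 7 were higher and 1 lower (median 1.45, summed level 389 to 438 against 876 to 881). Rgs5, a pericyte gene, rose by 1.93 ± 0.08 and Myh11, of smooth muscle, by 1.66 ± 0.07 on the log2 scale (edgeR adjusted p = 1.96e-32 and 3.34e-31). Acta2, also of smooth muscle, rose by 0.65 ± 0.08 and Notch3 by 0.28 ± 0.08 (edgeR adjusted p = 1.37e-10 and 0.00312), the latter uncalled with upper-quartile scaling and at -0.14 with library size only. Cspg4, named after its values were seen, fell by 0.62 ± 0.09 (edgeR adjusted p = 1.03e-08). No listed marker was at 0 in every library of a genotype.

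The blood cells that share some of the 10 genes were looked at in their own lists. Of 6 platelet and megakaryocyte genes tested, 1 was higher and 1 lower, and 4 were not called (median 0.06, summed level of all 8 listed 28.9 to 36.0 against 62.1 to 64.2 CPM). These counts of calls are near the shares over all genes tested, 16.8% higher and 11.5% lower. The gene that rose was Pf4, which some macrophages also make, with 26.7, 33.4 and 38.4 normalized counts in libraries labelled WT and 337, 341 and 304 in those labelled Dab2-cKO (log2 fold change 3.29 ± 0.16, edgeR adjusted p = 5.63e-29). Itga2b, the platelet integrin, had 116 ± 15.2 and 110.2 ± 26.1 normalized counts and was not called (edgeR adjusted p = 0.818), but with library size only it was called lower (log2 fold change -0.50, adjusted p = 0.011), which made 2 lower calls in the list. Gp5, a platelet glycoprotein named after its values were seen, had a log2 fold change of -0.79 ± 0.28 (edgeR adjusted p = 0.0262), and its adjusted p ran from 0.014 to 0.12 with a library left out, above the threshold without WT replicate 2 or 3 or Dab2-cKO replicate 2 or 3. Of 6 erythrocyte genes, 5 were higher and 1 lower (median 2.40, summed level 42.0 to 45.8 against 164 to 179 CPM). Hba-a1, a haemoglobin gene with a near-identical copy, had a log2 fold change of 3.60 ± 0.12 (edgeR adjusted p = 1.18e-38), Hbb-bs of 2.73 ± 0.15 (adjusted p = 6.93e-26) and Alas2, the first enzyme of haem synthesis in red cells, of 0.71 ± 0.15 (adjusted p = 0.000138), which was not called with library size only. Slc4a1, the anion exchanger of red cells, fell from 147 ± 10.7 to 73.7 ± 5.17 normalized counts (SD, n = 3 each, edgeR adjusted p = 6.72e-07).

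The genes of the sort and of the epithelium were counted in the same way. Cd34, the sorted antigen that bulge keratinocytes and endothelial cells both carry, had 455, 562 and 514 normalized counts in libraries labelled WT and 1755, 1820.3 and 1764 in those labelled Dab2-cKO, a log2 fold change of 1.80 ± 0.08 (edgeR adjusted p = 9.12e-32). That of Itga6 was 0.55 ± 0.07 (edgeR adjusted p = 9.58e-10), and it was 0.13 and not called with library size only. Of 11 bulge genes, Cd34 and Itga6 included, 6 were higher and 4, namely Sox9, Lhx2, Lgr5 and Foxc1, lower (named after their values were seen; median 0.55, summed level 999 to 1141 against 1676 to 1705 CPM). Krt15 rose by 0.84 ± 0.07 and Col17a1 by 1.01 ± 0.07 on the log2 scale (edgeR adjusted p = 3.87e-17 and 1.51e-20). Nfatc1, also named afterwards, rose by 1.32 ± 0.10 (edgeR adjusted p = 1.76e-19). At PD68 the paper reports, by immunofluorescence, less CD34 and K15 and more Sox9+ and NFATc1+ cells in the Dab2-cKO bulge. Under the labels, Nfatc1 RNA moved in the reported direction, and Cd34, Krt15 and Sox9 RNA in the opposite direction. Of 6 basal keratinocyte genes, 5 were higher and 1, Trp63, lower (likewise named afterwards; median 0.69, summed level 2258 to 2532 against 3912 to 3997 CPM). Krt14, Krt5 and Dst rose by 0.85, 0.62 and 1.00 on the log2 scale (edgeR adjusted p = 1.16e-17, 5.08e-12 and 2.98e-21).

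**Figure D5:**
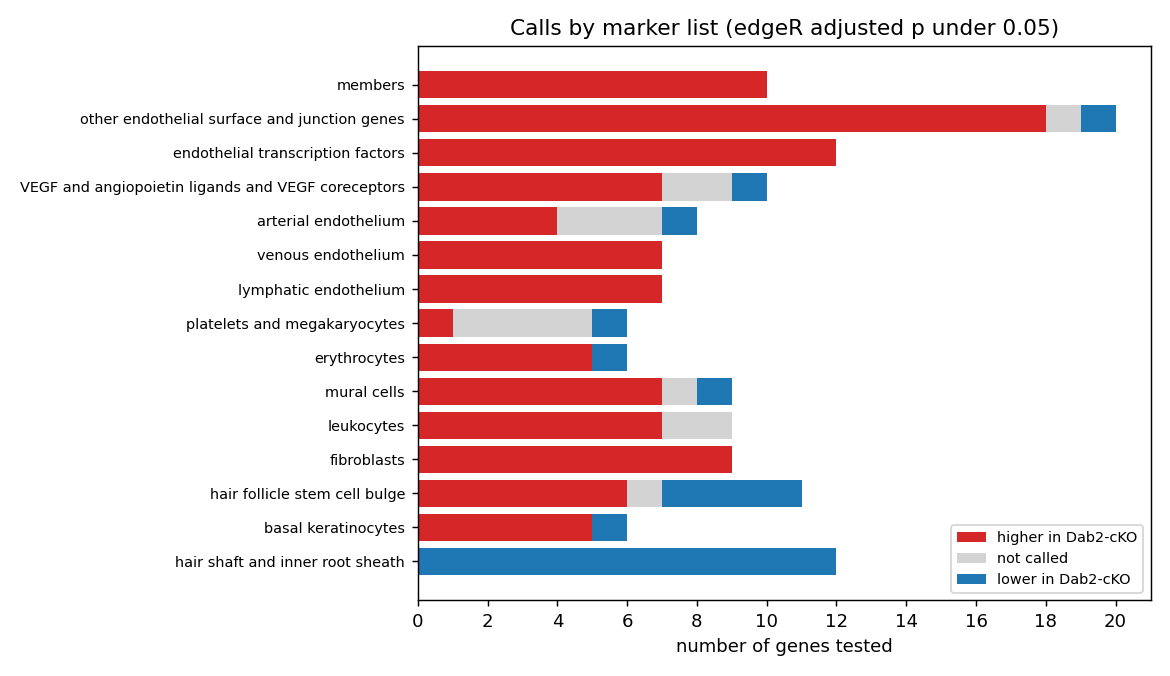
Number of genes tested in each list that were called higher (red), not called (grey) or called lower (blue) in the libraries labelled Dab2-cKO at an edgeR adjusted p under 0.05. The top bar, "members", holds the 10 endothelial genes, all higher, and the bottom bar the 12 hair shaft and inner root sheath genes, all lower.

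The genes whose profile lay closest to that of the 10 genes were sought among 14648 genes outside the lists whose mean normalized count was 50 or more. Likeness was the root mean square difference between the centred log2 profile of a gene and the mean profile of the 10 genes over the 6 libraries. The closest were Cavin2 (0.026), Myo18b (0.032), Nbl1 (0.039), Ak1 (0.043) and Epas1 (0.047), and 85 genes lay within 0.1. Of the 10 genes themselves, only Pecam1 (0.047), Kdr (0.057) and Cdh5 (0.059) lay within 0.1 of their mean profile. The others ran from 0.104 (Flt1) to 0.348 (Plvap). Cavin2, a coat protein of caveolae, went from a mean of 273 to 933 normalized counts, and Epas1 (HIF-2α), a factor of the oxygen response, from 659.9 to 2192. Myo18b went from 365 to 1247, Nbl1 from 196 to 697 and Ak1 from 377 to 1247. Which cells the RNA of these genes came from was not tested. With 6 libraries in 2 genotypes, a small value needs a like fold change between the genotypes and little else.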

How the data were processed

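The authors sorted HFSCs, prepared total RNA libraries, trimmed the reads with fastp 0.23.4, aligned them to GRCm39 with HISAT2 2.2.1 and counted them per gene with featureCounts 2.0.6, per the labels and the submitters' processing notes. The deposited table holds raw read counts per gene and library. The strand setting of the counting is not given in the sources used here. The table of the authors' own comparison (DESeq2 output with fold changes and p-values) was not used.

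Genes were tested in R 4.3.3 with edgeR 4.0.16: filterByExpr, TMM normalization and the robust quasi-likelihood test on all 6 libraries without covariates, with Benjamini-Hochberg adjustment over all 32149 genes tested. The fit was tested on simulated data in which few genes changed, as many rose as fell, and all genes had the same relative spread beyond counting error. A wide or uneven shift, on which the scaling depends, and a spread that differs between genes were therefore not tried. Each count was divided by its library's effective size (total times TMM factor) and multiplied by the mean effective size to give normalized counts. Shares and ratios were compared by exact permutation over libraries. Exon lengths, overlaps and positions came from GENCODE mouse release 39 (GRCm39). IDs of 56323 of the 56941 genes matched it. The replicates are labelled biological. Limits from counts cover counting error only.

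The 10 genes, the marker lists and the tests were chosen with earlier results of these data known. All 10 genes were named. From other lists, at most 4 genes with the highest mean normalized count were named, besides Mcam, Cd34, Itga6, Dab2, Vegfa and genes said to be chosen after their values were seen. The alternatives were DESeq2 1.42.0, other scalings and filters, a replicate block, a test against a 1.5-fold change and each library left out.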

Additional observations from a re-analysis of the deposited data

How the results depend on the processing

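The 10 endothelial genes were called higher under all 14 alternatives that give a test (140 of 140 values), with log2 fold changes from 0.99 to 2.60 and an adjusted p of at most 1.09e-09 (edgeR and DESeq2). The scaling set the size. The median log2 fold change of the 10 genes was 1.69 with upper-quartile scaling and 1.40 with library size only, while the median of all genes moved to -0.17 and -0.45, and it ran from 1.77 to 1.87 with a library left out. As CPM of the raw total, the summed level had a log2 ratio of 1.40. Over all genes, upper-quartile scaling called 5561 lower, and library size only called 2686 higher and 11168 lower and 2 of the 20 other endothelial surface genes lower. The other lists together had 94 genes called higher with TMM and 78 with library size only. Among the 78 were 16 surface, 6 lymphatic, 3 arterial and 6 mural genes. With a library left out, 4800 to 5322 genes were called higher and 3091 to 3731 lower, 90 to 93 of the 131 tested genes of the other lists were higher and 22 to 23 lower, and the log2 fold change of Dab2 was 2.03 to 2.11. Same-numbered libraries had correlations of their deviations of 0.073, -0.014 and 0.059 over 14798 genes, and not each library correlated best with its own number, so the numbers were not taken as pairs. With a replicate block, 5347 genes were called higher and 3620 lower, and the 10 endothelial genes stayed higher. At 41 to 129 counts, Emcn and Egfl7 under the WT label are the values that depth limits most.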

Other observations

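The summed count of the 10 endothelial genes was also set against the summed counts of other genes of the same library, without a test. Over Cd34, the ratio was 4.58, 4.23 and 4.50 in the libraries labelled WT and 4.60, 4.40 and 4.46 in those labelled Dab2-cKO, and the groups overlapped. Over the leukocyte genes it ranged from 2.30 to 2.88 and from 2.76 to 2.91, which also overlapped, and over the fibroblast genes from 0.0187 to 0.0199 and from 0.0207 to 0.0220, which did not. Over the erythrocyte genes it ranged from 5.25 to 6.04 under the WT label and from 4.78 to 5.26 under the Dab2-cKO label, lower in the latter apart from a narrow overlap. Over the mural genes the Dab2-cKO label had the higher values, 0.953 to 0.978 against 0.573 to 0.591. Over the basal keratinocyte genes it was 0.214 to 0.219 against 0.0986 to 0.103, over the lymphatic genes 2.28 to 2.41 against 1.70 to 2.00, and over the endothelial transcription factors 3.48 to 3.55 against 2.34 to 2.66. No background was taken off these sums.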
